A study of Mus musculus with 16 samples.

Results

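Matrix metalloproteinases, ADAM proteases and their tissue inhibitors were followed in bone marrow-derived macrophages, which are macrophages grown from mouse marrow cells. The set held 9 genes taken by name from the 46320 genes of the deposited count table, namely Mmp9, Mmp12, Mmp14, Mmp19, Timp1, Timp2, Timp3, Adam8 and Adam17. All 9 were present and all 9 passed the filter on low counts, as did 15610 genes in total. The marrow came from C57BL6/J mice and was grown for 7 days with L929-conditioned medium as the source of M-CSF, the growth factor of macrophages, and 400000 cells per well were then starved for 4 hours in 0.5% serum. Treatment then lasted 4 hours, in 4 groups of 4 libraries: thrombin-activated platelets, resting platelets, thrombin alone, and PBS vehicle. Platelets came from blood of the same strain. The thrombin dose is uncertain, since the treatment protocol names 0.01 U/mL for both thrombin groups while the sample labels of the thrombin group name 0.1 U/mL and those of the activated platelet group name none. The labels do not say how many animals were used or whether replicates came from separate cultures, so the spread between libraries may be partly technical.

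Matrix metalloproteinases (MMPs) are zinc enzymes that cut collagens, elastin and other proteins outside the cell, and most are made as inactive precursors. ADAMs are related membrane-anchored enzymes that shed the outer parts of cytokines, growth factors and receptors from the cell surface. The tissue inhibitors of metalloproteinases (TIMPs) bind the active site of these enzymes, and TIMP3 differs from the others in that it stays bound to the matrix and also blocks ADAM17. Macrophages are a known source of MMP9 and MMP12. RNA levels, as measured here, do not give enzyme activity.

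Libraries held 28034747 to 30602414 counts with activated platelets, 24857304 to 26355549 counts with resting platelets, 23148856 to 26716684 counts with thrombin and 22554915 to 27691521 counts in vehicle. The 9 genes together took 0.358% to 0.402%, 0.315% to 0.418%, 0.3% to 0.362% and 0.293% to 0.37% of counts in the same order, and the least abundant, Mmp9, had at least 414 counts in every library. The 12 macrophage markers, among them Csf1r, Cd68 and Lyz2, were all detected in each group and took 1.97% to 2.46% of counts per library. Of these 12, 2 rose and 2 fell with activated platelets against vehicle, and 1 fell with thrombin. The latter was Cd14, named here after its value was seen (log2 -0.29 ± 0.06, adjusted p = 0.0447). With activated platelets Cd14 was far higher, at 19575 to 22015 counts per library against 4407 to 6554 in vehicle. Levels are given as CPM, the usual library-size scaled counts, with library sizes adjusted by TMM, a method that corrects for differences in RNA composition. A gene is said to rise or fall where its Benjamini-Hochberg adjusted p in edgeR's quasi-likelihood test, adjusted over all 15610 genes, was below 0.05. Libraries with the same replicate number deviated from their group means together, so each comparison was also fitted with the number as a block, and that value is given where it changes a call of the 9 genes. For other gene lists the counts with the block are given, with its adjusted p for named genes whose call ended in another fit. With the block 6 macrophage markers were higher and 4 lower for activated platelets against vehicle, against 20% and 22.5% of all genes. For thrombin against vehicle 1 was higher and 4 were lower, against 3.91% and 4.32%. On groups alone 12.2% of all genes were higher and 13.6% lower with activated platelets, and 0.0897% and 0.199% with thrombin.

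On groups alone, members were called only in comparisons with activated platelets. Adam8, Mmp19 and Timp3 rose and Timp2 fell against vehicle, 3 genes higher and 1 lower. Over all genes tested, 12.2% were called higher and 13.6% lower in that comparison. With the block 5 genes were higher and 3 lower, against 20% and 22.5% of all genes, since Timp1 and Mmp14 then passed as higher and Mmp12 and Adam17 as lower. Mmp9 did not pass in either fit. The same 4 genes that passed without the block were also the 4 whose activated platelet and vehicle libraries did not overlap, where 12.6% of all genes lay wholly higher and 13.5% wholly lower. The median log2 fold change was 0.37 over the 9 genes and -0.00 over all genes.

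**Figure D1:**
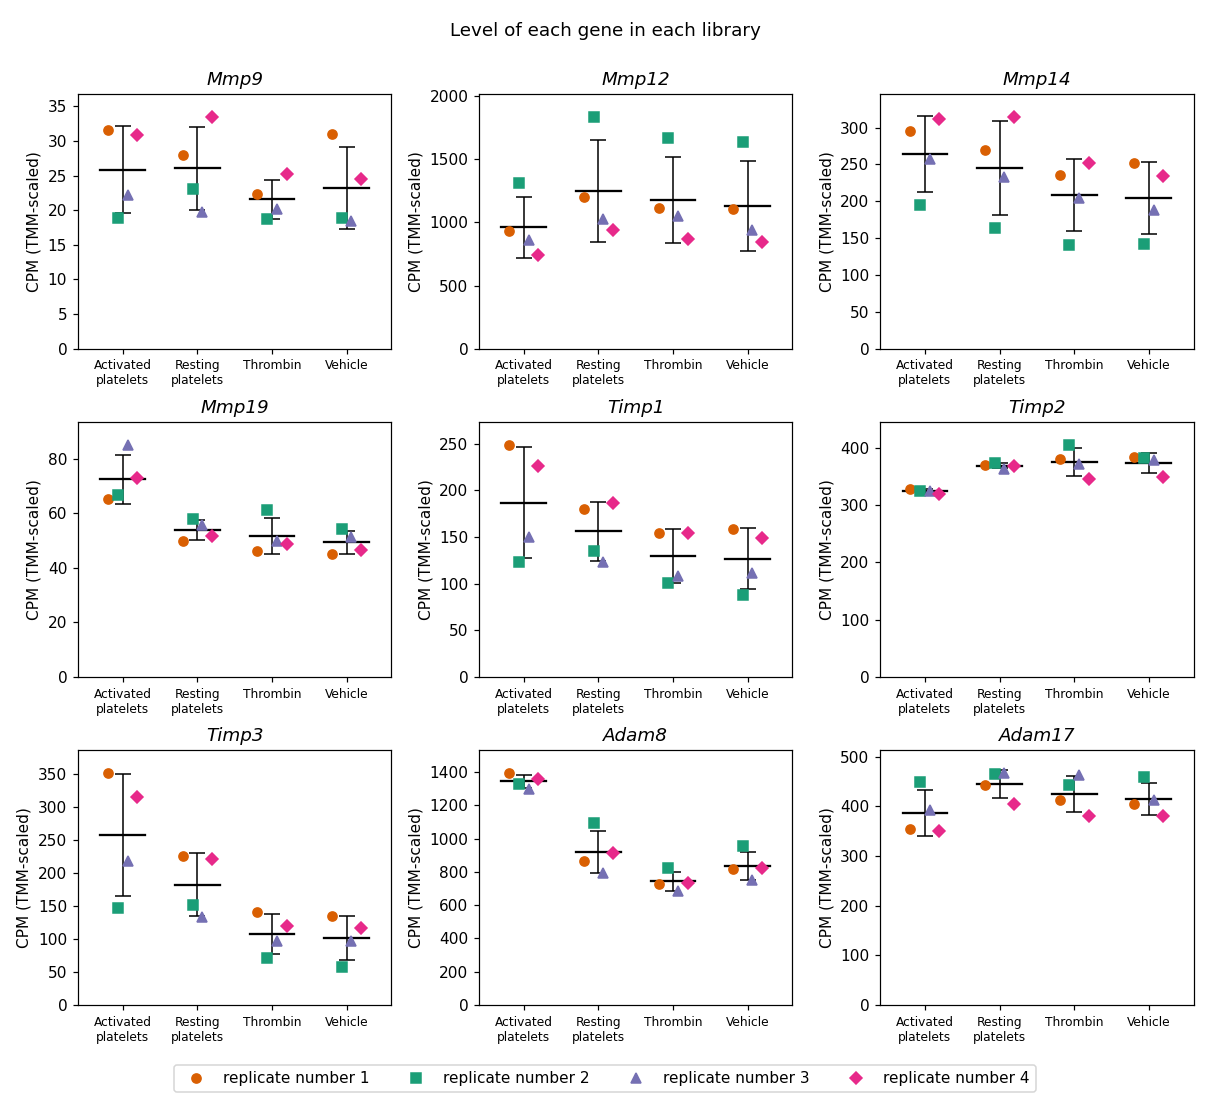
Level of each of the 9 genes in each of the 16 libraries, in CPM on TMM-scaled library sizes, by group. Points are libraries, shaped and coloured by replicate number, and bars give the mean ± SD of 4 libraries. Adam8 libraries with activated platelets sit between 1298 and 1392 CPM, above all others, whereas the Timp1, Mmp14 and Mmp12 libraries of one number lie at like positions in every group.

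Of the ADAMs, Adam8 gave the clearest response. ADAM8 is a sheddase of leukocytes that is found on granulocytes and macrophages. Its gene (NCBI gene 11501, chromosome 7, 139558845 to 139573016, minus strand, GRCm39) stood at 1392, 1330.0, 1298 and 1359 CPM with activated platelets, at 868, 1093, 796 and 913 CPM with resting platelets, at 727, 824, 686 and 736 CPM with thrombin and at 815, 954, 749 and 822 CPM in vehicle. All 4 activated platelet libraries lay above every other library, and the other 3 groups overlapped. Adam8 rose by a log2 fold change of 0.69 ± 0.09 (SE) against vehicle (adjusted p = 3.7e-05), 0.55 ± 0.09 against resting platelets (adjusted p = 0.000603) and 0.86 ± 0.09 against thrombin (adjusted p = 4.28e-06). Thrombin alone went the other way, at -0.17 ± 0.09 against vehicle, with lower levels within 4 of 4 replicate numbers. Its adjusted p was 0.519 (0.0374 with the block, 0.269 with the block and a correction for GC content).

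The thrombin contrast of Adam8 differed with and without platelets. Reading it as a thrombin effect requires the same dose in both thrombin groups, which is uncertain as stated above. With platelets the contrast also includes platelet activation itself. The interaction, which is activated minus resting platelets less thrombin minus vehicle, was 0.72 ± 0.13 in log2 (adjusted p = 0.00244) and lay between 0.49 and 0.85 within the 4 replicate numbers. Adam8 was the 1 gene of the 9 called higher here and 0 were lower, against 4.56% and 5.37% of all genes. Without replicate number 1 the interaction was 0.69 and its adjusted p 0.0713. With the block 2 genes were higher and 3 lower, against 13.1% and 15.9% of all genes. The interaction of Mmp19 was 0.37 ± 0.14 (adjusted p = 0.0993; 0.00802 with the block), that of Timp2 -0.19 ± 0.06 (adjusted p = 0.0747; 0.00257 with the block), that of Adam17 -0.24 ± 0.12 (adjusted p = 0.224; 0.00117 with the block) and that of Mmp12 -0.44 ± 0.36 (adjusted p = 0.493; 2.55e-07 with the block). Without thrombin 2 that of Mmp19 passed (adjusted p = 0.0288), and without thrombin 4 that of Timp2 passed (adjusted p = 0.031).

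Adam17, the sheddase that releases tumour necrosis factor from the cell surface, changed little (NCBI gene 11491, chromosome 12, 21373510 to 21423633, minus strand, GRCm39). It stood at 354, 449.5, 392 and 349.7 CPM with activated platelets, 442, 466, 466 and 406 CPM with resting platelets, 413, 443, 463 and 381 CPM with thrombin and 406, 459.7, 412 and 381 CPM in vehicle. All 4 groups overlapped. Its log2 fold change with activated platelets was -0.10 ± 0.08 against vehicle (adjusted p = 0.421; 0.0261 with the block) and -0.20 ± 0.08 against resting platelets (adjusted p = 0.117; 0.000121 with the block). Within replicate numbers it was lower in 4 of 4 in both comparisons. Against thrombin it was -0.14 ± 0.08 (adjusted p = 0.26; 0.00376 with the block, 0.0576 with the block and GC correction), lower in 3 of 4 numbers. Without activated platelets 2, the highest of its group, the difference from resting platelets was -0.29 (adjusted p = 0.0244). The 3′ end of Adam17 overlaps that of Iah1 on the other strand, which had 948 to 1223 counts per library against 10102 to 12972 for Adam17.

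Of the 3 inhibitors, Timp3 and Timp1 were higher with activated platelets than in vehicle within 4 of 4 replicate numbers, and Timp2 was lower within 4 of 4. Timp3 had the largest fold change of the 9 genes against vehicle. Timp1 passed with the block but not on groups alone, and Timp2 fell slightly with little spread. The upstream sequences of the 3, 250 bases before the RefSeq start (RefSeq, GRCm38.p6, 5′ to 3′ on the gene's strand), are shown with matches to the GC box letters GGGCGG on either strand in capitals.
Timp1, chrX:20869916-20870165, plus strand: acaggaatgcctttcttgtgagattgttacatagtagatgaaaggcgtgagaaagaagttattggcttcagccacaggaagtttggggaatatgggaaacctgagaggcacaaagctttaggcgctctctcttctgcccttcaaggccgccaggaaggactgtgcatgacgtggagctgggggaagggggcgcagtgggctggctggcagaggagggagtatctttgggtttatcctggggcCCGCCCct
Timp2, chr11:118355412-118355661, minus strand: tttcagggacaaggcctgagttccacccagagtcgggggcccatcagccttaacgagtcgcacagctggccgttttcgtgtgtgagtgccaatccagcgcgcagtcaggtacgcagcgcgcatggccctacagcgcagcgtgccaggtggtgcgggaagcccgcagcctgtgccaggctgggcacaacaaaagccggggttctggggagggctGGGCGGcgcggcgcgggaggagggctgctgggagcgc
Timp3, chr10:86300162-86300411, plus strand: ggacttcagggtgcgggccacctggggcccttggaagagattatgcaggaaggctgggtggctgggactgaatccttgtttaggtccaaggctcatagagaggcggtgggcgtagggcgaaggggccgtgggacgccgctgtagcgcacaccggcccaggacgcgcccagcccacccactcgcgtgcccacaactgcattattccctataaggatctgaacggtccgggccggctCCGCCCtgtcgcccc
Each of the 3 held 1 GC box, which begins 8, 37 and 15 bases before the start of Timp1, Timp2 and Timp3. Such a match was also in the windows of Adam8, Adam17 and Mmp14, but not in those of Mmp12. It was in 32.7% of all 32851 promoter windows of this length. None of the 3 TIMP windows held the letters TGANTCA of AP-1, which were in 6.75% of all windows, TTCNNNGAA of STAT factors (7.02%) or TATAAA (12.4%), each searched on both strands. GC made up 54.4%, 68% and 65.6% of the letters in the same order.

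Timp3 (NCBI gene 21859, chromosome 10, 86136276 to 86185369, plus strand, GRCm39) had 351, 146, 218 and 314 CPM with activated platelets, 225, 151, 133 and 220.3 CPM with resting platelets, 141, 71.6, 97.6 and 119.9 CPM with thrombin and 135, 57.9, 96.9 and 116 CPM in vehicle, for replicate numbers 1 to 4. Activated platelet libraries were all above the thrombin and vehicle libraries and overlapped with the resting platelet ones. Timp3 rose 2.53-fold against vehicle (log2 1.34 ± 0.30, adjusted p = 0.0032) and 2.39-fold against thrombin (adjusted p = 0.00494). Against resting platelets the fold change was 1.41 (log2 0.50 ± 0.29, adjusted p = 0.277; 0.0169 with the block), with replicate 2 at -0.05 and the other numbers between 0.51 and 0.71. Resting platelets against vehicle gave 1.79-fold (log2 0.84 ± 0.29, adjusted p = 0.124; 0.00125 with the block), higher within 4 of 4 numbers by 0.46 to 1.38. Timp3 lies within the span of Syn3 on the other strand, which had 0 to 2 counts per library, and shares bases with a predicted long noncoding RNA of 3 to 18.5 counts.

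Timp1, a soluble inhibitor that also acts as a growth factor for some cells, followed the same order of groups (NCBI gene 21857, chromosome X, 20736405 to 20740976, plus strand, GRCm39). It had 249, 123, 150.1 and 226 CPM with activated platelets, 180.3, 134, 123 and 186 CPM with resting platelets, 155, 100.3, 108 and 154 CPM with thrombin and 159, 88.2, 112 and 149 CPM in vehicle. The groups overlapped, because the libraries of numbers 1 and 4 stood well above those of 2 and 3 in each group. Its log2 fold change was 0.56 ± 0.24 for activated platelets against vehicle, short of the threshold on groups alone (adjusted p 0.097; 0.0329 without activated platelets 2; 6.11e-05 with the block). Within numbers 1 to 4 it was higher by 0.65, 0.48, 0.43 and 0.60. Against thrombin the value was 0.53 ± 0.24 (adjusted p = 0.116; 0.000111 with the block; 0.0399 without activated platelets 2), against resting platelets 0.26 ± 0.23 (adjusted p = 0.511; 0.0287 with the block, 0.079 with the block and GC correction), and resting platelets against vehicle gave 0.30 ± 0.24 (adjusted p = 0.547; 0.0108 with the block). Timp1 lies within Syn1 on the other strand, which had 109 to 303 counts per library.

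Timp2, which besides inhibiting MMPs takes part in the activation of pro-MMP2 by MMP14 at the cell surface, had the smallest spread of the 9 genes (NCBI gene 21858, chromosome 11, 118191887 to 118246237, minus strand, GRCm39). It stood at 327, 325, 324 and 319 CPM with activated platelets, 369.6, 373, 362 and 367 CPM with resting platelets, 379, 404, 371 and 345 CPM with thrombin and 384, 382, 379 and 348 CPM in vehicle. The activated platelet libraries lay below all 12 others. It fell by 0.20 ± 0.05 on the log2 scale against vehicle (adjusted p = 0.00348), by 0.18 ± 0.05 against resting platelets (adjusted p = 0.0121) and by 0.21 ± 0.05 against thrombin (adjusted p = 0.00282). Without replicate number 1 these calls ended, at adjusted p = 0.0645, 0.119 and 0.0542. The value against resting platelets was also lost without number 3 (adjusted p = 0.0738).

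**Figure D2:**
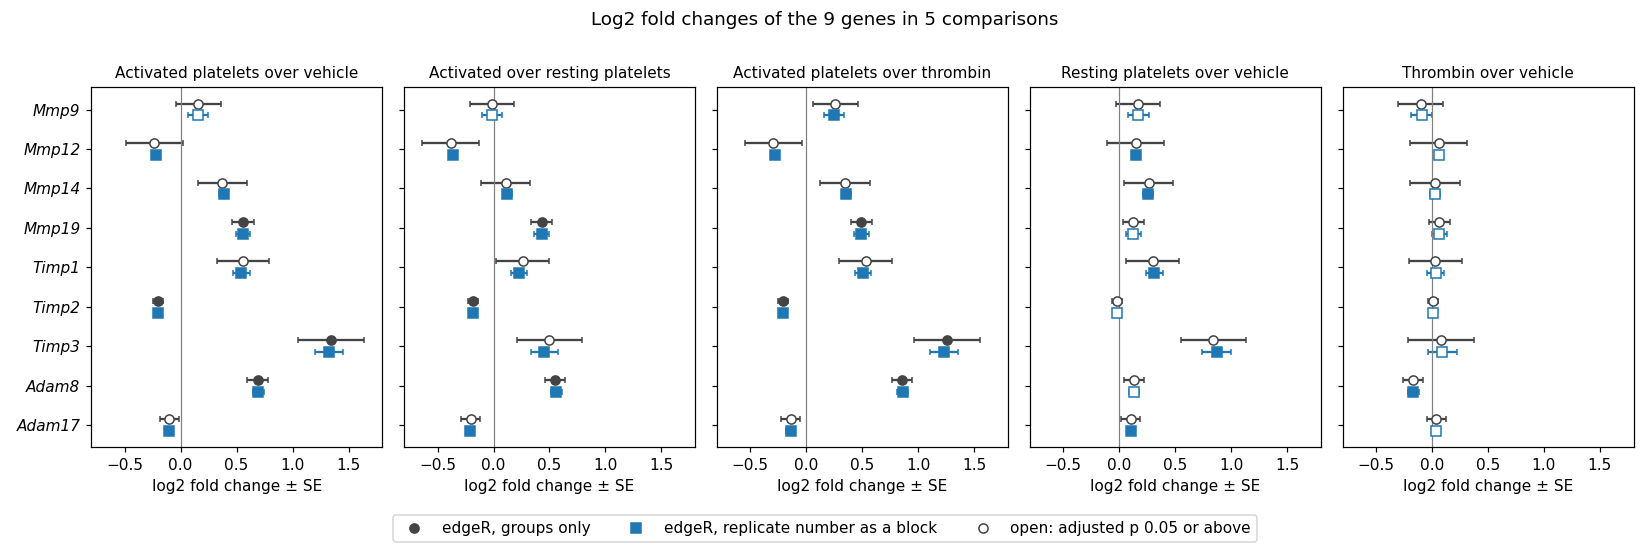
Log2 fold change ± SE of the 9 genes in 5 comparisons, by edgeR on groups alone (grey circles) and with replicate number as a block (blue squares), with filled symbols where adjusted p was below 0.05. Timp3 lies farthest right against vehicle at 1.34, and in the 2 comparisons without activated platelets no gene is filled on groups alone.

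Of the MMPs, Mmp19 rose and the other 3 did not pass on groups alone. MMP19 is a soluble enzyme that cuts basement membrane proteins (NCBI gene 58223, chromosome 10, 128626779 to 128636696, plus strand, GRCm39). Mmp19 had 65.2, 66.8, 85 and 73 CPM with activated platelets, 50, 57.9, 55.6 and 51.8 CPM with resting platelets, 46.2, 61.2, 49.9 and 48.9 CPM with thrombin and 44.9, 54.3, 51.5 and 46.7 CPM in vehicle. Activated platelet libraries lay above all others. The rise was 0.56 ± 0.10 in log2 against vehicle (adjusted p = 0.000414), 0.43 ± 0.10 against resting platelets (adjusted p = 0.00594) and 0.49 ± 0.10 against thrombin (adjusted p = 0.00118). Against resting platelets the call ended without replicate number 3 (adjusted p = 0.0603) or 4 (0.0562). Mmp19 overlaps Tmem198b on the other strand, which had 685 to 920 counts per library against 1135 to 2365 for Mmp19.

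Mmp14, the membrane-anchored collagenase MT1-MMP (NCBI gene 17387, chromosome 14, 54669055 to 54679913, plus strand, GRCm39), had 295, 195, 257 and 311 CPM with activated platelets, 269, 164, 233 and 314 CPM with resting platelets, 235, 141, 205 and 251 CPM with thrombin and 252, 142, 188 and 235 CPM in vehicle. All groups overlapped, with number 2 lowest in each. Its log2 fold change was 0.37 ± 0.22 for activated platelets against vehicle (adjusted p = 0.244; 7.2e-08 with the block), with 0.23, 0.45, 0.45 and 0.41 within numbers 1 to 4. Against thrombin it was 0.35 ± 0.22 (adjusted p = 0.284; 2.21e-07 with the block), and for resting platelets against vehicle 0.26 ± 0.22 (adjusted p = 0.577; 0.000125 with the block). Activated against resting platelets gave 0.11 ± 0.22 (adjusted p = 0.794; 0.0207 with the block, 0.132 with the block and GC correction), which was lower within number 4 and higher within the other numbers.

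Mmp12, macrophage elastase (NCBI gene 17381, chromosome 9, 7344397 to 7360461, plus strand, GRCm39), was the most abundant of the 4 MMPs. It had 929, 1308, 860.3 and 742 CPM with activated platelets, 1201, 1833, 1026 and 943 CPM with resting platelets, 1117, 1665, 1053 and 872 CPM with thrombin and 1102, 1634, 938 and 841 CPM in vehicle. In every group number 2 was highest and number 4 lowest, and the groups overlapped. Activated platelets against vehicle gave a log2 fold change of -0.23 ± 0.25 (adjusted p = 0.554; 8.24e-06 with the block), against resting platelets -0.38 ± 0.25 (adjusted p = 0.349; 7.34e-09 with the block) and against thrombin -0.29 ± 0.25 (adjusted p = 0.448; 1.92e-07 with the block), each lower within 4 of 4 numbers. Resting platelets against vehicle gave 0.15 ± 0.25 (adjusted p = 0.824; 0.00245 with the block, but 0.07 in log2 and 0.231 with the block and GC correction), higher within 4 of 4 by 0.12 to 0.17. Mmp12 has 2 RefSeq starts, and the 250 bases before the second (RefSeq, GRCm38.p6) are shown because they hold the one AP-1 match among the 8 promoter windows found for 7 of the 9 genes, with that match in capitals, 44 bases before the start.
Mmp12, chr9:7347124-7347373, plus strand: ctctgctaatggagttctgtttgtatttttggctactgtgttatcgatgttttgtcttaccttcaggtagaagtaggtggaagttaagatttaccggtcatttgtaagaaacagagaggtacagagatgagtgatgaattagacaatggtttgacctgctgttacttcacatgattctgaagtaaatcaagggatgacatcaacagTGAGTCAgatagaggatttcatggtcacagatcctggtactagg

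Mmp9, gelatinase B (NCBI gene 17395, chromosome 2, 164782246 to 164797770, plus strand, GRCm39), was the least abundant of the 9. It had 31.5, 18.9, 22.1 and 30.8 CPM with activated platelets, 28, 23.1, 19.7 and 33.4 CPM with resting platelets, 22.3, 18.8, 20.1 and 25.2 CPM with thrombin and 31, 18.8, 18.4 and 24.5 CPM in vehicle. The groups overlapped throughout. Activated platelets against vehicle gave a log2 fold change of 0.16 ± 0.20 (adjusted p = 0.617; 0.179 with the block), and against thrombin 0.26 ± 0.20 (adjusted p = 0.382; 0.0389 with the block, a call that ended with the GC correction, at 0.109, and in 3 of the 4 blocked fits without a number, at 0.0501 to 0.1).

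Resting platelets and thrombin alone called none of the 9 genes against vehicle in edgeR on groups alone. For resting platelets 2.07% of all genes were called higher and 1.32% lower, 0 members either way, with 1 at an unadjusted p below 0.05, and DESeq2 and limma-voom also called 0. With the block 5 members were higher (Mmp12, Mmp14, Timp1, Timp3 and Adam17, the last at adjusted p = 0.0497) and 0 lower, against 10.9% and 10.6% of all genes. With the GC correction added, Mmp12 (0.231) and Adam17 (0.273) lost that call and Adam8 gained it (0.0215). For thrombin 0.0897% of all genes were called higher and 0.199% lower, 0 members either way, with 0 at an unadjusted p below 0.05 and 0 by DESeq2 and limma-voom. With the block Adam8 alone was called, as lower, against 3.91% of all genes higher and 4.32% lower. The libraries overlapped for all 9 genes in both comparisons, where 6.28% of all genes lay wholly higher and 5.21% wholly lower with resting platelets, and 3.32% and 3.36% with thrombin. The range of log2 fold changes with thrombin was -0.17 to 0.08, and that with resting platelets was -0.02 to 0.84.

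Between platelet states, activated against resting platelets, 2 members rose (Adam8 and Mmp19) and 1 fell (Timp2), against 7.34% and 8.49% of all genes. These 3 did not overlap between the groups, where 9.7% of all genes lay wholly higher and 9.85% wholly lower. With the block 5 were higher and 3 lower, against 15.9% and 18.6%, and with the block and a GC correction 3 were higher and 3 lower. Against thrombin, 3 members rose with activated platelets (Adam8, Mmp19 and Timp3) and 1 fell (Timp2), against 11.9% and 13.5% of all genes. These 4 did not overlap between the groups, where 11.9% of all genes lay wholly higher and 13.5% wholly lower. With the block 6 were higher and 3 lower, against 19.6% and 22%. The 3 comparisons of activated platelets share those libraries, so their like results are not separate evidence.

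On a scale per length, as CPM per kilobase of exon, genes can be set against each other. In vehicle the order of mean levels was Mmp12 at 299 ± 93.7, Adam8 at 199 ± 20.5, Timp1 at 143 ± 36.9, Timp2 at 103 ± 4.65, Adam17 at 91.1 ± 7.23, Mmp14 at 53.7 ± 12.9, Timp3 at 21.7 ± 7.05, Mmp19 at 14.3 ± 1.25 and Mmp9 at 6.07 ± 1.54 CPM per kilobase (SD, n = 4). Ranges of library values overlapped between Timp1 and Timp2, between Timp2 and Adam17, and between Timp3 and Mmp19, and in vehicle also between Mmp12 and Adam8. With activated platelets Adam8 had the highest mean at 321 ± 9.59, its libraries overlapping with those of Mmp12 at 254 ± 64.8, and Timp3 reached 55 ± 19.8 CPM per kilobase, where its libraries overlapped with those of Mmp14 at 69.6 ± 13.6. The summed level of the 3 TIMPs was 1.27, 0.614, 0.934 and 1.33 times that of the 4 MMPs with activated platelets, 0.858, 0.519, 0.753 and 1.00 times with resting platelets, 0.818, 0.478, 0.695 and 0.926 times with thrombin and 0.825, 0.441, 0.789 and 0.948 times in vehicle, for numbers 1 to 4. The ratio was higher with activated platelets than with vehicle within each number, and the groups overlapped.

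Several members varied with replicate number in all 4 groups. After removal of group means, Timp1 and Timp3 varied together over the 16 libraries (r = 0.968), as did Mmp9 and Timp1 (r = 0.924), Mmp14 and Timp3 (r = 0.876) and Mmp14 and Timp1 (r = 0.856). Libraries of one number share whatever the number marks, so these are descriptions with 16 points in 4 sets. Mmp12 varied with Adam17 (r = 0.723) and Adam8 (r = 0.704), and opposite to Mmp14 (r = -0.872). Adam17 varied opposite to Timp1 (r = -0.9), Timp3 (r = -0.845), Mmp9 (r = -0.808) and Mmp14 (r = -0.797). Stromal cell markers, a list of 12 genes such as Col1a1 and Sparc, took 0.721%, 0.328%, 0.388% and 0.643% of counts with activated platelets for numbers 1 to 4. They took 0.788%, 0.376%, 0.44% and 0.68% in vehicle. Their levels were uneven, with 26203 to 66016 counts per library for Col1a1 but 5 to 32 for Dcn and 0 to 4 for Lum. Numbers 1 and 4 thus held the most in both groups, as with Timp1, Timp3 and Mmp9, which fibroblasts also express. Within numbers the stromal share was lower with activated platelets than in vehicle in 4 of 4, and Timp3 was higher in 4 of 4. Of the 11 stromal markers tested, 0 were called for activated platelets against vehicle, with a median log2 fold change of -0.06. With the block 2 were higher and 3 lower. Over all genes 12.2% were called higher and 13.6% lower there, and 20% and 22.5% with the block. For resting platelets against vehicle 0 of 11 were called, against 2.07% of all genes higher and 1.32% lower. With the block 5 were higher and 0 lower, against 10.9% and 10.6%. In bulk RNA, fewer cells of a type and less RNA per cell cannot be told apart. The part of stromal cells in the differences between replicate numbers or between treatment groups, those of Timp3 included, was not tested.

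**Figure D3:**
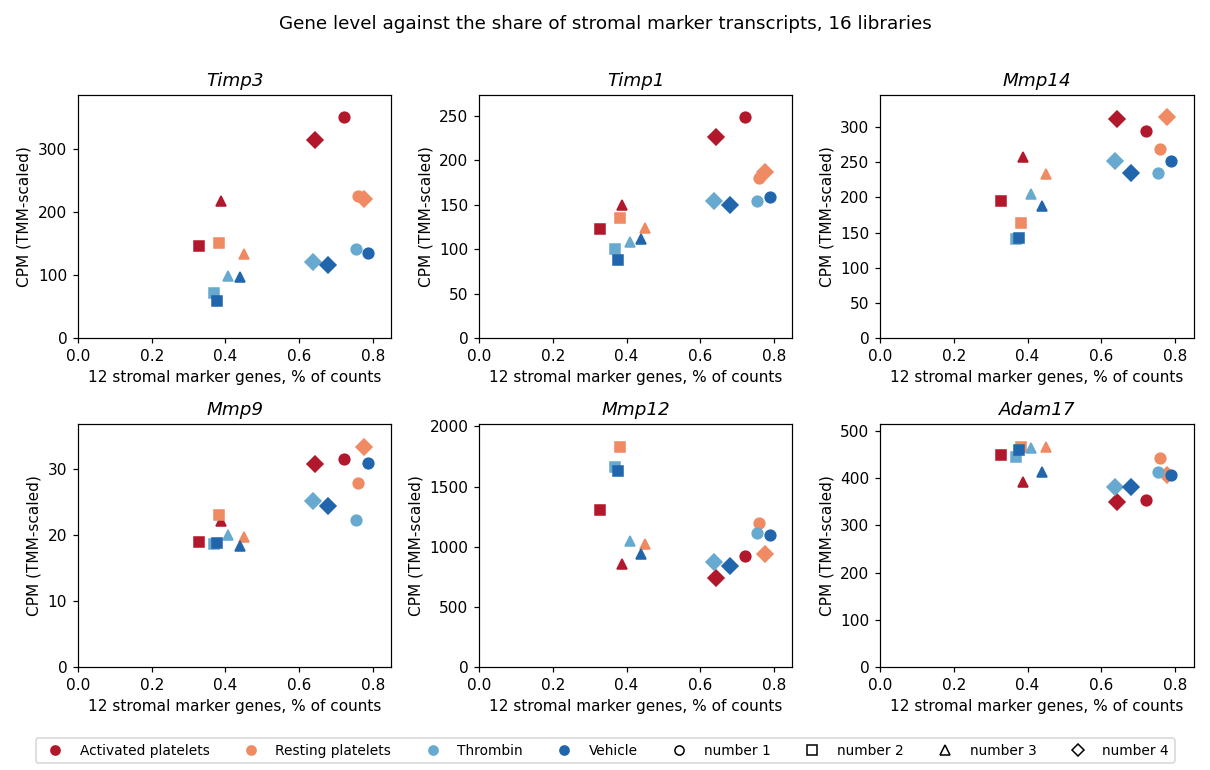
Level of 6 genes in CPM against the share of counts taken by the 12 stromal marker genes, with 1 point per library, coloured by group and shaped by replicate number. Timp3, Timp1, Mmp14 and Mmp9 are high in numbers 1 and 4, where the share is 0.638% to 0.788%, and at a given number the activated platelet points of Timp3 lie above the vehicle points.

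Platelet markers were highest with activated platelets. The 20 platelet and megakaryocyte markers other than Pf4 took 0.0373% to 0.0488% of counts with activated platelets and 0.0235% to 0.0282% with resting platelets. They took 0.0212% to 0.025% with thrombin and 0.02% to 0.0255% in vehicle. Pf4 was detected in every vehicle library too, as were others such as Vwf (1482 to 2395 counts) and Bin2 (2214 to 2908 counts). Ppbp had 877 to 1337 counts with activated platelets, 28 to 222 with resting platelets and 2 to 11 in vehicle. Including Pf4 the list of 21 held 0.0616% to 0.0726%, 0.0436% to 0.0483%, 0.0413% to 0.0435% and 0.0397% to 0.0458%, with 3 of its genes at 0 in all thrombin and all vehicle libraries. Of the 20 tested, 17 rose and 1 fell for activated platelets against vehicle, and 18 were higher and 1 lower with the block. For activated against resting platelets 14 rose and 0 fell (17 and 0 with the block). For resting platelets against vehicle 10 rose and 0 fell (14 and 1 with the block). Over all genes, in the same order of comparisons, 12.2% rose and 13.6% fell, 7.34% and 8.49%, and 2.07% and 1.32%. With the block these shares were 20% and 22.5%, 15.9% and 18.6%, and 10.9% and 10.6%. Neutrophil markers, 12 genes including S100a8, took 0.0195% to 0.0306% with activated platelets and 0.0196% to 0.0252% in vehicle. Csf3r had the most counts of this list, at 4017 to 5095 per library with activated platelets and 4753 to 5692 in vehicle. S100a8 had 283 to 518 and 85 to 249 counts in the same order. Of 9 tested 1 rose and 0 fell, with a median log2 fold change of 0.89, and with the block 3 were higher and 1 lower. The shares of all genes given above for activated platelets against vehicle apply here too. The part of platelet RNA in the rises of Adam8, Mmp19 and Timp3 was not tested.

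Other genes of this system were taken from lists chosen by role. For activated platelets against vehicle 12.2% of all genes were called higher and 13.6% lower, and 20% and 22.5% with the block. The list counts below for that comparison are to be read beside these shares. Among 19 other MMPs, 10 were expressed enough to test, and with activated platelets against vehicle Mmp13, a collagenase, rose by 0.51 ± 0.13 in log2 (adjusted p = 0.00931) while Mmp28, epilysin, fell by 0.93 ± 0.26 (adjusted p = 0.0146; 0.0592 without vehicle 4). The other 8 did not pass on groups alone, the median was -0.32, and with the block 2 of the 10 were higher and 5 lower. Of 9 other ADAMs tested of 11, Adam12 rose by 1.06 ± 0.27 (adjusted p = 0.00853) and Adam10, the sheddase closest in role to ADAM17, by 0.18 ± 0.05 (adjusted p = 0.00718), and with the block 3 were higher and 2 lower. Adam12 stood at 40, 19.3, 24.9 and 41.2 CPM with activated platelets and 18, 10.7, 13.6 and 17.8 CPM in vehicle, with numbers 1 and 4 highest in both groups. Without replicate number 1 the calls of Mmp13 (adjusted p = 0.0727), Mmp28 (0.0567) and Adam12 (0.0545) ended, as did those of Adam10 (0.0609), Adam12 (0.0555) and Mmp28 (0.122) without number 4 and that of Mmp28 (0.0879) without number 2. With the block these genes passed, at adjusted p = 1.71e-05 for Mmp13, 0.00036 for Mmp28, 1.12e-07 for Adam12 and 3.81e-05 for Adam10. The interaction of Adam15, a membrane ADAM, was 0.26 ± 0.07 (adjusted p = 0.0234; 0.254 without number 1, 0.0909 without number 4 and 0.000142 with the block).

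The ADAMTS proteases, secreted relatives that cut proteoglycans and procollagens, did not rise against vehicle. Of 10 tested of 19, Adamts5, an aggrecanase, fell by 2.83 ± 0.46 in log2 (adjusted p = 0.000243), at 3.34, 1.84, 1.87 and 3.22 CPM with activated platelets, 13, 5.11, 8.05 and 12.3 CPM with resting platelets, 27, 8.01, 8.45 and 18.1 CPM with thrombin and 28.6, 10.4, 12.1 and 22.1 CPM in vehicle. It was also lower than with resting platelets (log2 -1.90 ± 0.46, adjusted p = 0.0103; 0.0675 by limma-voom, 0.0535 without replicate number 3 and 0.0738 without number 4). Adamts1 fell by 1.18 ± 0.36 (adjusted p = 0.0233), a call that ended without activated platelets 2 (0.0652) or 3 (0.0522), without vehicle 1 (0.0955), without replicate number 1 (0.114), 2 (0.0922) or 4 (0.063) and with no filter on low counts (0.084). With the block 3 ADAMTS genes were higher and 4 lower, against 20% and 22.5% of all genes. Adamts1 was among the lower ones (adjusted p = 1.76e-05). Adamts5 was then also lower than with resting platelets (adjusted p = 2.86e-09).

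Among 14 tested activators and partners of these enzymes 3 rose and 0 fell with activated platelets against vehicle, against 12.2% and 13.6% of all genes. With the block 6 were higher and 1 lower, against 20% and 22.5%. Furin, the convertase that removes the inhibitory propeptide of MMP14 and ADAM17, stood at 236, 232, 248 and 247 CPM with activated platelets and 167, 176, 167 and 162 CPM in vehicle, a rise of 0.52 ± 0.05 in log2 (adjusted p = 5.29e-07). Plaur, the urokinase receptor, rose by 0.83 ± 0.11 (adjusted p = 3.8e-05) and Cd44, a hyaluronan receptor that can hold MMP9 at the cell surface, by 0.53 ± 0.06 (adjusted p = 1.47e-05). Furin was also the 1 member of this list that rose with resting platelets against vehicle (0.24 ± 0.05, adjusted p = 0.0105; 0.0548 in a fit of the 2 groups alone, 0.0939 without replicate number 1 and 0.109 without number 4). With the block this passed at 0.000131, and in each blocked fit without a number at 0.00391 or below. The interaction of Furin was 0.35 ± 0.06 (adjusted p = 0.00295; 0.0585 without replicate number 1, 3.15e-05 with the block). Furin, Plaur and Cd44 were also higher with activated than with resting platelets, by 0.28 ± 0.05 (adjusted p = 0.000525), 0.58 ± 0.11 (adjusted p = 0.00198) and 0.31 ± 0.06 (adjusted p = 0.00327). The interaction of Plaur was 0.55 ± 0.16 (adjusted p = 0.0358; 0.000162 with the block) and lost its call in 8 of 16 fits with 1 library fewer (adjusted p up to 0.0762). Of the 7 cathepsins and other matrix proteases tested 0 were called on groups alone, and 2 were higher and 1 lower with the block, and of 3 other inhibitors only Reck could be tested and it did not pass.

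Of 11 tested genes whose proteins are shed by ADAM17 or ADAM10, 4 rose, 1 fell and 6 did not pass with activated platelets against vehicle. Of all genes 12.2% were called higher and 13.6% lower there. With the block 6 were higher and 4 lower, against 20% and 22.5% of all genes. Hbegf, a growth factor of the epidermal growth factor family, rose by 2.53 ± 0.26 in log2 (adjusted p = 3.15e-06), at 94.6, 49.9, 63.7 and 98 CPM with activated platelets, 25.2, 29.1, 24.4 and 42.7 CPM with resting platelets, 18.2, 15.7, 17.6 and 24.8 CPM with thrombin and 12.9, 9.14, 11.6 and 19.3 CPM in vehicle. Cxcl16, a membrane-bound chemokine, rose by 0.90 ± 0.09 (adjusted p = 1.25e-06) and Cx3cl1, fractalkine, by 1.23 ± 0.20 (adjusted p = 0.000271). Mertk, a receptor for apoptotic cells, fell by 0.42 ± 0.14 (adjusted p = 0.0338), which ended without activated platelets 1 (0.0945), 2 (0.0577) or 4 (0.0925), without vehicle 2 (0.0545) or 3 (0.122), without replicate number 1 (0.12), 2 (0.132) or 4 (0.118) and with no filter on low counts (0.1). With the block the fall of Mertk passed at adjusted p = 1.49e-10. Activated against resting platelets gave 1.33 ± 0.25 for Hbegf (adjusted p = 0.00156; 0.0646 without replicate number 1, 3.91e-05 with the block) and 0.48 ± 0.08 for Cxcl16 (adjusted p = 0.0011). The interaction of Cxcl16 was 0.59 ± 0.12 (adjusted p = 0.00592; 0.0834 without number 1, 1.07e-05 with the block). Hbegf and Cxcl16 also rose with resting platelets against vehicle, by 1.19 ± 0.26 (adjusted p = 0.0222) and 0.42 ± 0.08 (adjusted p = 0.0142). The call of Hbegf there ended without resting platelets 4 (0.0649), vehicle 1 (0.0633) or vehicle 2 (0.0724) and with no filter (0.0812), and also without replicate number 1 (0.19), 2 (0.127) or 3 (0.0756). That of Cxcl16 ended without resting platelets 2 (0.0522) or vehicle 4 (0.0508), and without each of the 4 replicate numbers (0.053 to 0.0976). With the block both genes passed there, Hbegf at adjusted p = 0.000867 and Cxcl16 at 2.68e-05. They also passed in each of the 4 blocked fits without a number, at 0.0142 or below for Hbegf and 0.00262 or below for Cxcl16. For thrombin against vehicle, 0 members of these 7 lists were called in edgeR on groups alone, and with the block 1 substrate was higher and 1 substrate, 1 ADAM, 1 ADAMTS gene and 1 activator or partner were lower. Over all genes 0.0897% were called higher and 0.199% lower there, and 3.91% and 4.32% with the block.

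**Figure D4:**
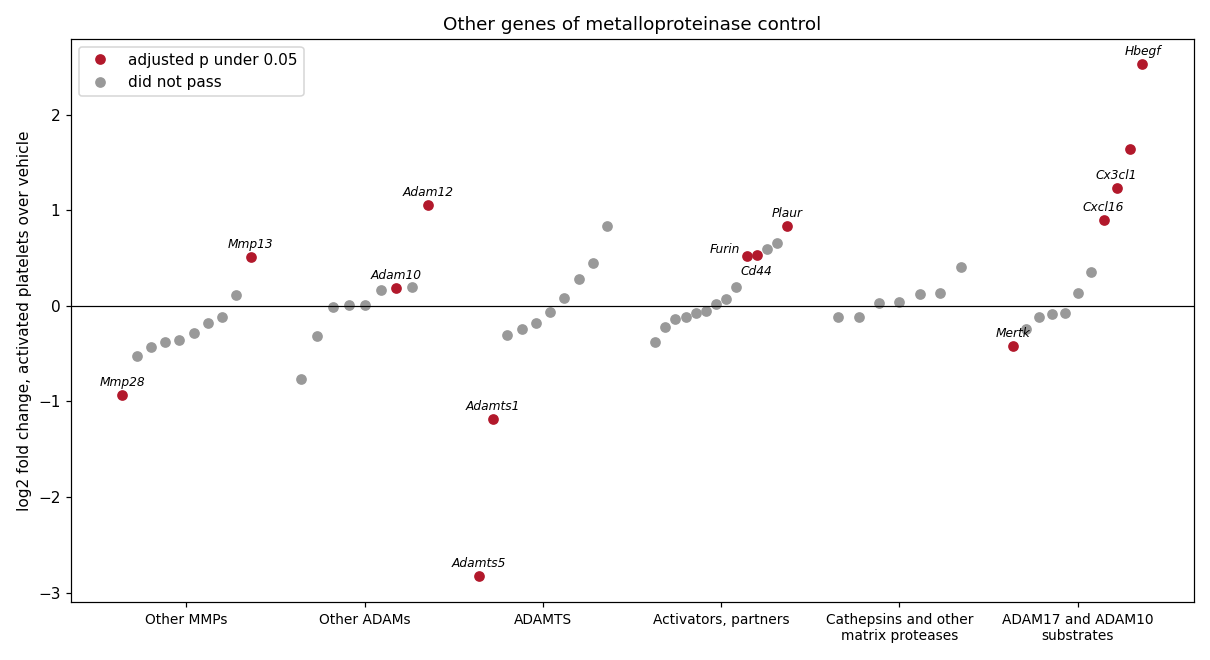
Log2 fold change of activated platelets over vehicle for the tested genes of 6 lists, with 1 point per gene, red where adjusted p was below 0.05 and grey otherwise. Hbegf lies highest at 2.53 and Adamts5 lowest at -2.83, and no point of the cathepsin list is red.

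The genes most like each member in log2 CPM over the 16 libraries were sought among all genes tested, as a description. Timp3 was nearest to Adam12 (r = 0.975) and Wnt5a (r = 0.972), and Timp1 to Akap12 (r = 0.979) and Flnc (r = 0.976). Mmp12 was nearest to Cd36 (r = 0.979) and Rnf128 (r = 0.973), Mmp14 to Dzip1l (r = 0.961) and Manf (r = 0.959), and Mmp9 to Col5a3 (r = 0.956) and Fads3 (r = 0.939). Adam8 was nearest to Map2k3 (r = 0.978) and Samd4b (r = 0.964), Adam17 to Vav1 (r = 0.942) and Dram1 (r = 0.928), Mmp19 to Ist1 (r = 0.953) and Pim1 (r = 0.952), and Timp2 to Atp6v0a1 (r = 0.947) and Fam241a (r = 0.932). After removal of group means the correlation of Mmp12 with Cd36 was 0.984, that of Timp3 with Adam12 0.954 and that of Adam8 with Map2k3 0.854. Lower values were those of Adam8 with Samd4b (0.816), Mmp19 with Ist1 (0.81) and Pim1 (0.837), and Timp2 with Atp6v0a1 (0.793) and Fam241a (0.712). For Mmp9, Mmp14, Timp1 and Adam17 both values were at least 0.933.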

How the data were processed

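Poly(A) RNA of 16 macrophage libraries was sequenced from a strand-preserving kit, per the labels' protocols. The authors deposited 1 table of estimated counts per gene with no normalization, with RefSeq gene coordinates of GRCm39 per the file headers. The tools named are featureCounts 1.6.4, cutadapt 2.5 and STAR 2.7.2b, and the builds GRCm39 and mm10, per the submitters' processing notes. How strand and multiply mapped reads were handled is not given here, so overlapping genes are uncertain. Of values above 0, 25.5% were not whole, and values were rounded, which changed 0.00734% of counts. Exon lengths are the authors' deposited values.

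Groups came from sample titles. Counts were filtered with filterByExpr, leaving 15610 genes, scaled by TMM and tested with robust edgeR 4.0.16 quasi-likelihood in R 4.3.3 on all 16 libraries as 4 groups, two-sided, over 6 comparisons. Standard errors come from the F statistic. Alternatives were RLE scaling, no filter, DESeq2 1.42.0, limma-voom (limma 3.58.1), replicate number as a block, also with GC correction, fits of the compared groups alone, and libraries or numbers left out. The fits with both the block and a number left out were chosen after seeing the data. The 24 same-number correlations of deviations were 0.29 to 0.617 and the others at most 0.253, so the numbers were taken to pair libraries. The meaning of a number is unstated in the labels, so the pairing rests on the libraries themselves. Replicates of a group differed by 8.43 to 36.2 times counting noise (chi-square per degree of freedom). Scripts were tested on simulated counts.

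The 9 genes and the lists were chosen with earlier results of these data known. From each list, up to 3 rising and 3 falling called genes with the smallest p and at least 1 CPM in the higher group were eligible to be named in each comparison. For correlations the prior count in log2 CPM was 2. Promoter windows are RefSeq's on GRCm38.p6.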

Additional observations from a re-analysis of the deposited data

Results flagged for a closer look

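The interaction of Adam8 stood out because the thrombin contrast differed with and without platelets, at 0.72 in log2 (edgeR, adjusted p = 0.00244), higher within 4 of 4 replicate numbers. Whether both thrombin groups had the same dose is uncertain, and with platelets the contrast includes platelet activation. Adam8 was higher with activated than with resting platelets, and lower with thrombin than with vehicle, within each number. Timp2 in vehicle held 1 library far from the others, vehicle 4 at 348 CPM against 379 to 384 CPM, with a gap of 0.854 of the group's range, above the Dixon limit for 4 samples. Chance flags about 1 in 20 groups, and 36 were looked at.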

How the results depend on the processing

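The count of members called was the same under RLE scaling, with no filter, by limma-voom and in fits of the compared groups alone, in each comparison these were run for, and by DESeq2 except for the interaction, where it was 2 against 1. With the replicate block the counts were 8 against 4 for activated platelets against vehicle, 8 against 3 against resting platelets, 9 against 4 against thrombin, 5 against 0 for resting platelets against vehicle, 1 against 0 for thrombin against vehicle and 5 against 1 for the interaction. With the block and GC correction they were 8, 6, 7, 4, 0 and 5 in that order. The block changed no other call of the 9 genes than those given with the results. With a single library left out the counts were 4 to 5, 3 to 4, 4 to 5, 0, 0 and 1 to 2, and with a replicate number left out 3 to 4, 1 to 4, 3 to 4, 0, 0 and 0 to 2. With the block and a number left out they were 7 to 8, 5 to 7, 7 to 9, 3 to 6, 0 to 1 and 4 to 7. No direction of a called gene reversed.

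Over all genes, edgeR called 4031, 2472, 3960, 529, 45 and 1550 genes in the same order, and 6635, 5391, 6499, 3360, 1285 and 4535 with the block. With the block and GC correction the counts were 6863, 5309, 6676, 2722, 411 and 3550, and DESeq2 called 953 for resting platelets and 160 for thrombin against vehicle. Fits of the compared groups alone called 198 and 11 in these 2 comparisons, and 335 genes were called for resting platelets with no filter on low counts. With 1 library left out the lowest counts were 3302, 1813, 3226, 208, 7 and 1122. The cause of these shifts was not tested. Levels per length moved by more than 1 SD for Adam8 in all 4 groups, Timp2 with either kind of platelets and Mmp9 with thrombin when the longest GENCODE transcript was used as length. At 414 or more counts per library, counting error was small beside the spread between libraries, except for Timp2. With either kind of platelets the spread of Timp2 was about the size of counting error.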
